A study of Mus musculus with 15 samples.

Results

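The genes described here are 38 genes of skeletal muscle, chosen by name as myogenic transcription factors, sarcomere proteins and proteins of the muscle membrane. They were found among the 48709 genes of the count table by the Ensembl identifier of each symbol. The rule applies no threshold to measured values, although earlier results of these data were known when the genes were chosen. The 38 genes were grouped by role into 5 myogenic factors, 8 sarcomere isoforms typical of embryonic, cardiac or slow muscle, 7 isoforms typical of fast, perinatal or adult muscle, 9 scaffold, assembly and M-line genes, and 9 membrane, receptor and calcium release genes. All 38 had reads in the parotid mesenchyme.

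RNA was sequenced from the epithelium and from the mesenchyme of 2 mouse salivary glands, the submandibular gland (SMG) from embryos at day 11.5 and the parotid gland (PG) from embryos at day 12. SMG epithelium, SMG mesenchyme and PG mesenchyme had 4 libraries each and PG epithelium had 3, giving 15 libraries. All embryos were of the ICR strain, an outbred stock, and the labels give no genotype, treatment or sex. Replicates are described as biologically independent, while the way the layers were parted, the number of glands in a sample and the position of the cut around each gland are, in the sources used here, not given. Because each gland was taken at its own embryonic day, gland and stage cannot be told apart in any comparison between glands.

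Many muscles of the head and neck, though not all, form from mesoderm of the pharyngeal arches, next to the sites where salivary glands bud. Myf5 and Myod1 commit progenitors to the muscle fate, Myog drives their differentiation, Myf6 acts mostly in later fibres, and Mef2c works with these factors on shared promoters. Differentiating cells then exit the cell cycle, fuse into multinucleated fibres and assemble sarcomeres, first with embryonic and cardiac-type isoforms and later with perinatal and adult ones. Salivary glands have no skeletal muscle fibres of their own, and the contractile cells of the adult gland are myoepithelial cells of epithelial origin.

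The promoters of 4 genes show the kinds of sites found in this set, with 1 example each for the factors, the contractile proteins, the assembly genes and the synaptic receptor. The E-box CANNTG is the core sequence bound by the myogenic factors, CAGCTG is a form of it that they prefer, the MEF2 site is bound by Mef2c and its relatives, and the CArG box by serum response factor. Each line gives the 250 bases upstream of the RefSeq start (GRCm38.p6), 5′ to 3′ on the gene's strand, with matches to these 4 motifs and to TATAAA in capitals.
Myog promoter: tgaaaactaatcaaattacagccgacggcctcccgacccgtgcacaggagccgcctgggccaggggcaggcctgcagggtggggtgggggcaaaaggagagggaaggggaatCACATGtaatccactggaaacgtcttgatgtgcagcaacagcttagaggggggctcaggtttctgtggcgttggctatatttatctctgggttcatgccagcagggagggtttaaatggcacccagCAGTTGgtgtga
Acta1 promoter: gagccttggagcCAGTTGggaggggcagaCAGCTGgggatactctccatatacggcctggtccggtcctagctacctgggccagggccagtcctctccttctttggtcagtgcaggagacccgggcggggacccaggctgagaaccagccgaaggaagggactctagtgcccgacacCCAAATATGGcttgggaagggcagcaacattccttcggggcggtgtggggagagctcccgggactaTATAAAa
Klhl41 promoter: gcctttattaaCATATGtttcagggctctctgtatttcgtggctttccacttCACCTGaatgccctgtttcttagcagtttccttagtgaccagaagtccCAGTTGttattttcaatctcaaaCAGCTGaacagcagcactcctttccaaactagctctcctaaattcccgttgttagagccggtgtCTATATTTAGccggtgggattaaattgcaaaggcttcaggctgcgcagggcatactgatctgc
Chrna1 promoter: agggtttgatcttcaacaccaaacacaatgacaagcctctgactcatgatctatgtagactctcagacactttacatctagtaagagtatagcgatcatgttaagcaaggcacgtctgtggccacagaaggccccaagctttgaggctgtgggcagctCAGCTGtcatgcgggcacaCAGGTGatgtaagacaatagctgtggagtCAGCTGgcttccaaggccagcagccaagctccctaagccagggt
These windows lie at chr1:134289754-134290003 on the plus strand for Myog, chr8:123894776-123895025 on the minus strand for Acta1, chr2:69669870-69670119 on the plus strand for Klhl41 and chr2:73580339-73580588 on the minus strand for Chrna1. In the Myog window the E-boxes CACATG and CAGTTG lie 138 to 133 and 12 to 7 bases before the start. Acta1 has a CArG box 73 to 64 bases before its start, Klhl41 a MEF2 site 63 to 54 bases before its start, and Chrna1 the E-box CAGCTG at 92 to 87 and again at 44 to 39 bases.

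A promoter was listed for 32 of the 38 genes. Searched on both strands, 27 of these 32 windows (84.4%) held CANNTG, against 66.2% of 32817 promoters of all genes. CAGCTG, whose matches also count as CANNTG, stood in 14 windows (43.8% against 13.0%). A MEF2 site was counted only as CTAWWWWTAR or YTAWWWWTAG, with W for A or T, R for A or G and Y for C or T. It was found in the windows of Myh8, Ttn, Klhl41 and Casq2 (12.5% against 1.69%). Looser forms, such as CTATATTTAT in the Myog window, were not counted, so a window without a match may still hold a related site. A CArG box was in the windows of Acta1 and Actc1 (6.25% against 1.47%). TATAAA was in 9 windows (28.1% against 12.4%). These shares describe letters in a fixed window, and binding was not measured.

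Levels are given as CPM, the usual library-scaled read counts, computed with edgeR's TMM factors and listed in replicate order. One read was worth 0.0347 to 0.0484 CPM in a library of 20561142 to 29552734 gene counts. The layers carried their own markers: 10 epithelial markers summed to 2860 to 4400 CPM in the epithelial libraries, 12.7 to 26.1 CPM in SMG mesenchyme and 107 to 607 CPM in PG mesenchyme, the last being highest in replicate 1. Another 10 mesenchymal markers summed to 7190 to 12300 CPM in mesenchyme and 31.0 to 403 CPM in epithelium, where PG epithelium replicate 2 was the highest PG library. Bulk RNA does not separate fewer cells of a type from less RNA per cell, so a lower muscle gene level cannot be assigned to either.

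The muscle genes were at their highest level in PG mesenchyme. Summed over the 38 genes, CPM was 4050, 3030, 2750 and 2050 in PG mesenchyme (2970 ± 830, SD, n = 4), 206, 161, 167 and 441 in SMG mesenchyme (244 ± 133, n = 4), 66.0, 99.9 and 40.5 in PG epithelium (68.8 ± 29.8, n = 3) and 29.9, 27.6, 28.7 and 26.7 in SMG epithelium (28.2 ± 1.38, n = 4). The 4 ranges of these sums did not overlap. Mean levels reached at least 10 CPM for 31 genes in PG mesenchyme, 4 in SMG mesenchyme (Myog, Mef2c, Actc1 and Tnnt1), 1 in PG epithelium (Mef2c) and 0 in SMG epithelium. In PG mesenchyme 10 genes were above 100 CPM on average, and 0 were in any other group.

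**Figure D1:**
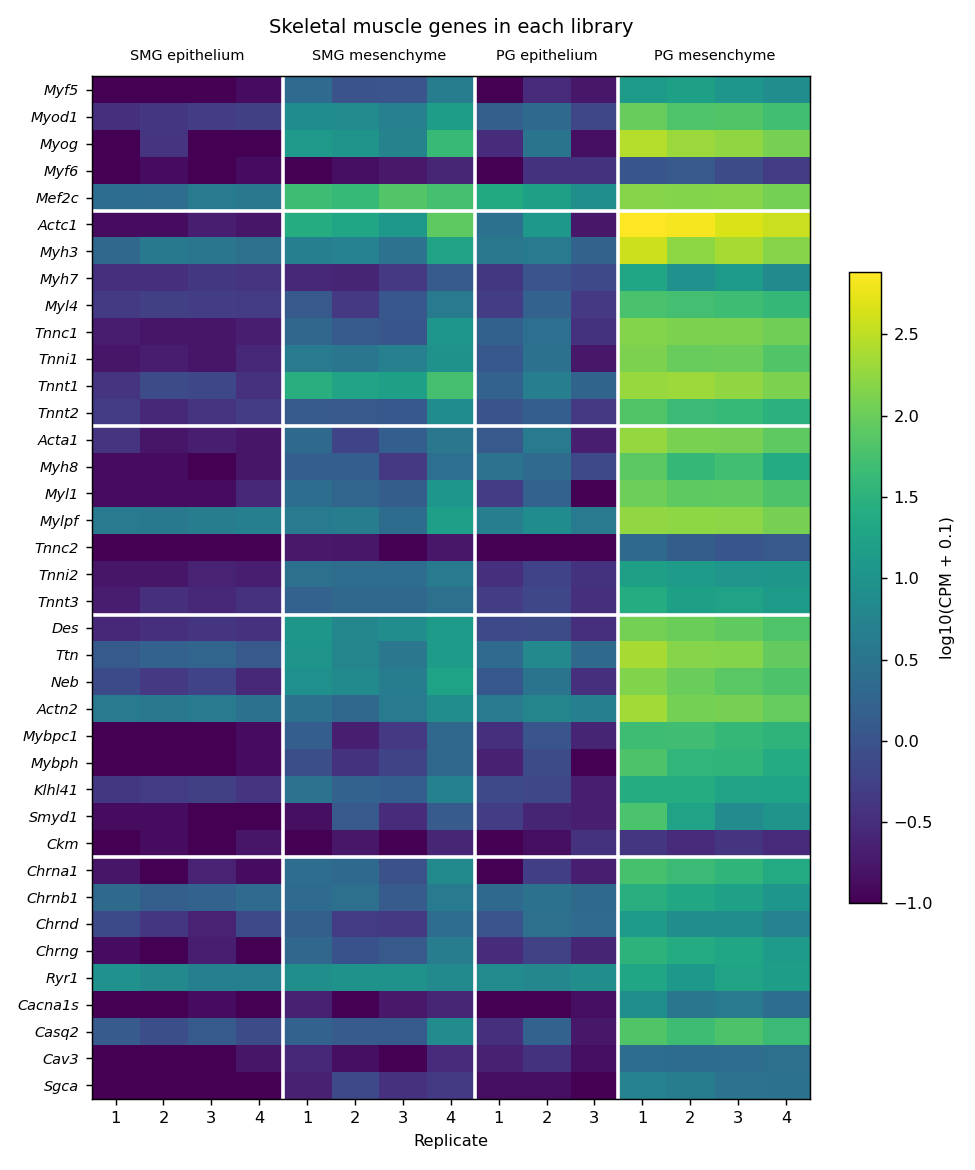
Level of each of the 38 muscle genes (rows, grouped by role) in each of the 15 libraries (columns, grouped by gland and layer), as log10(CPM + 0.1) by colour, with white lines between roles and groups. The 4 PG mesenchyme columns are brightest in every role, the SMG mesenchyme columns are intermediate with replicate 4 brightest for 34 of 38 genes, and both epithelia are dark except for a few rows such as Mylpf, Actn2 and Ryr1.

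The first comparison set PG mesenchyme against SMG mesenchyme. Of the 37 genes tested, 37 were higher in PG mesenchyme and 0 lower at an adjusted p under 0.05 (edgeR's quasi-likelihood test, adjusted over 18940 genes by the Benjamini-Hochberg method, which is behind every adjusted p below). Of all genes 24.7% were called, 15.3% higher and 9.43% lower. All 38 genes, the untested Ckm included, had every PG library above every SMG library, against 15.8% of all genes, while 10.5% of all genes had every PG library below every SMG library. The median change was 4.02 on the log2 scale (0.88 to 6.19), against 0.02 over all genes. Of the 37, 8 genes, Myf6, Myh7, Tnnc2, Mybpc1, Smyd1, Cacna1s, Cav3 and Sgca, met the count minimum in PG mesenchyme alone and so were tested only because of the group where they are high. Of the other 29, 29 were higher, with a median of 3.68.

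The myogenic factors were higher in PG mesenchyme by 1.41 to 3.48 on the log2 scale. Myod1 was at 7.71, 7.45, 4.78 and 15 CPM in SMG mesenchyme and at 94.3, 66.2, 66.5 and 51.5 CPM in PG mesenchyme. The lowest PG library was thus above the highest SMG library, and the fitted change was 2.99 ± 0.34 (SE, adjusted p = 2.2e-05). Myog, which marks cells that have begun to differentiate, read 12.5, 10.3, 5.39 and 41.7 CPM in SMG mesenchyme against 281, 199, 175 and 124 CPM in PG mesenchyme (3.48 ± 0.73, adjusted p = 0.00386). Replicate 4 was the highest SMG library for Myog and still lay below every PG library.

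Myf5, the earliest of the factors to appear in most muscle progenitors, was detected in every mesenchymal library. It read 2.18, 0.884, 0.948 and 4.23 CPM in SMG mesenchyme and 13.2, 15.8, 10.8 and 7.84 CPM in PG mesenchyme (2.53 ± 0.49, adjusted p = 0.00126). Myf6, also known as MRF4, was near the detection limit, at 0, 0.0384, 0.0862 and 0.161 CPM in SMG and 1.01, 1.13, 0.666 and 0.387 CPM in PG mesenchyme (3.4 ± 0.78, adjusted p = 0.00431). Mef2c, which is also active in endothelium and neural crest, had the smallest change of the factors, with 47.2, 40.3, 70.8 and 54.9 CPM in SMG against 150, 148, 150 and 119 CPM in PG mesenchyme (1.41 ± 0.25, adjusted p = 0.000797). Its highest SMG library was replicate 3. The 8 endothelial markers summed to 510, 457, 609 and 556 CPM in SMG mesenchyme, and of the 8 replicate 3 was highest for 3 and replicate 4 for 4. How much of Mef2c is endothelial was not tested.

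**Figure D2:**
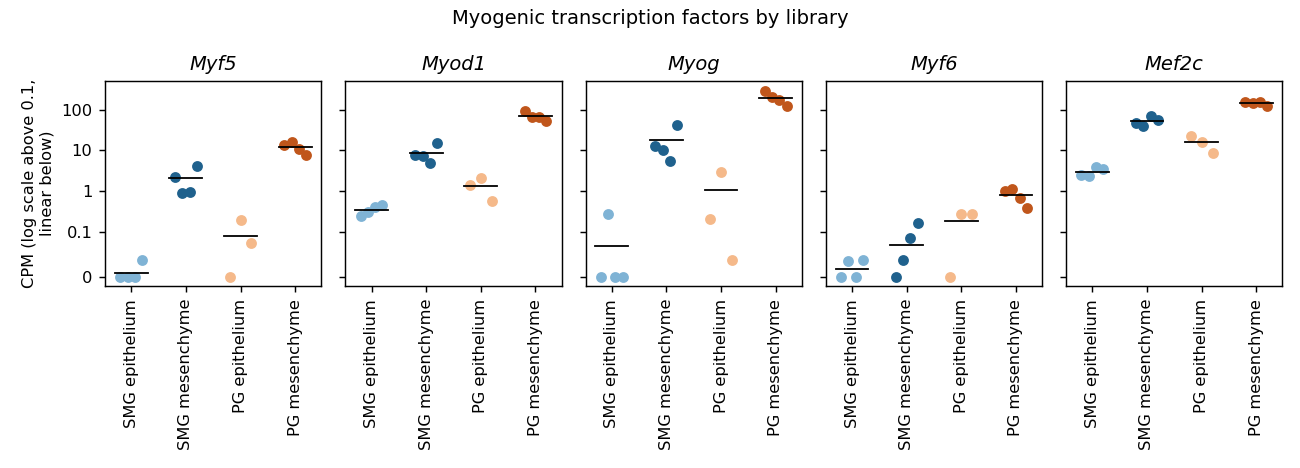
CPM of the 5 myogenic transcription factors in each library of the 4 groups (points, one per library; bars are group means; the axis is logarithmic above 0.1 CPM and linear below). All PG mesenchyme points lie above all SMG mesenchyme points for each factor, and Myog spans 5.39 to 41.7 CPM in SMG mesenchyme against 124 to 281 CPM in PG mesenchyme.

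Among embryonic, cardiac-type and slow isoforms, 8 of 8 were higher in PG mesenchyme, with a median change of 4.42. Actc1, the actin of heart and of embryonic skeletal muscle, was at 25.1, 19.2, 11.7 and 83.8 CPM in SMG and 766, 679, 456 and 373 CPM in PG mesenchyme (4.02 ± 0.80, adjusted p = 0.00264). Myh3, the embryonic myosin heavy chain, read 4.69, 5.19, 2.89 and 18.2 CPM in SMG against 385, 170, 238 and 153 CPM in PG mesenchyme (4.93 ± 0.57, adjusted p = 4.48e-05). In both genes SMG replicate 4 stood far above its 3 fellows and far below the lowest PG library.

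Myh7, the slow and cardiac beta myosin, was at 0.168, 0.154, 0.345 and 1.21 CPM in SMG and 19.5, 9.09, 12.8 and 6.82 CPM in PG mesenchyme (4.67 ± 0.56, adjusted p = 2.25e-05). Its exons share 15.6% of their 50-base stretches with Myh6, so part of its reads may be split with that paralog. Myl4, the embryonic and atrial light chain, went from 1.13, 0.346, 1.03 and 3.87 CPM to 59.3, 51.9, 48.2 and 38.7 CPM (4.95 ± 0.56, adjusted p = 2.43e-05). Tnnt2, the cardiac troponin T that embryonic skeletal muscle uses for a time, went from 1.17, 1.11, 1.08 and 7.74 CPM to 67.4, 44.0, 39.6 and 29.8 CPM (4.02 ± 0.62, adjusted p = 0.000355). The slow troponin T gene Tnnt1 had the smallest change of this set, 2.58 ± 0.40 (adjusted p = 0.000366), and was already at 16.2 to 54.8 CPM in SMG mesenchyme. Tnnc1 and Tnni1, the slow troponins C and I, rose by 5.13 ± 0.70 and 4.17 ± 0.52.

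Fast, perinatal and adult-type isoforms were higher in 7 of 7 cases, with a median of 4.40. Acta1, the adult skeletal actin whose CArG box is printed above, had the largest change of all 37 genes, from 2.01, 0.499, 1.34 and 3.31 CPM in SMG mesenchyme to 186, 128, 124 and 84.3 CPM in PG mesenchyme (6.19 ± 0.68, adjusted p = 3.04e-05). Myh8, the perinatal myosin heavy chain, went from 1.34, 1.34, 0.345 and 2.5 CPM to 80.6, 38.2, 51.1 and 24.7 CPM (5.13 ± 0.56, adjusted p = 1.73e-05). Mylpf, the regulatory light chain of fast fibres, read 3.69, 4.19, 2.28 and 15.6 CPM in SMG and 182, 169, 160 and 123 CPM in PG mesenchyme (4.61 ± 0.50, adjusted p = 2.49e-05). The groups were apart for all 3 genes, by the widest margin for Acta1, whose lowest PG library was 25.5 times its highest SMG library.

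Fast troponin I had the smallest change of the fast isoforms. Tnni2 was at 2.64, 2.38, 2.33 and 3.83 CPM in SMG and 16.0, 14.0, 10.6 and 11.2 CPM in PG mesenchyme (2.21 ± 0.25, adjusted p = 1.15e-05), and only Ryr1 and Mef2c of the genes tested had smaller fitted changes. Fast troponin C, Tnnc2, was under 0.09 CPM in every SMG mesenchyme library and at 0.999 to 2.11 CPM in PG mesenchyme. Because 74.0% of its exon bases lie opposite the cell-cycle gene Ube2c and the cDNA kit does not mark strand, these few reads may belong to either gene.

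Scaffold, assembly and M-line genes were higher in 8 of the 8 tested, with a median of 4.62. Des, the intermediate filament desmin and an early muscle protein, read 11.2, 6.15, 7.85 and 12.9 CPM in SMG and 120, 103, 86.3 and 66.3 CPM in PG mesenchyme (3.30 ± 0.25, adjusted p = 5.19e-07). Ttn, the giant spring protein titin, read 10.2, 5.72, 3.36 and 13.9 CPM against 234, 152, 145 and 89.6 CPM (4.22 ± 0.48, adjusted p = 3.95e-05). Mybpc1, the slow myosin-binding protein C, went from 1.34, 0.115, 0.345 and 1.9 CPM to 46.9, 49.0, 37.9 and 33.4 CPM (5.50 ± 0.60, adjusted p = 1.7e-05). All 3 genes were apart between glands in every library.

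The assembly factors Smyd1, a methyltransferase that acts on myosin folding, and Klhl41, a kelch protein that stabilises nebulin, rose by 5.19 ± 0.83 (adjusted p = 0.000454) and 3.00 ± 0.40 (adjusted p = 5.48e-05). Smyd1 was at 61.5 CPM in PG mesenchyme replicate 1 and at 17.2, 7.25 and 10.1 CPM in the other 3, so its ratio of mean CPM between glands, 37.2, was 17.8 without that library. Muscle creatine kinase, Ckm, an enzyme of mature fibres, was the exception in level: it read 0, 0.0768, 0 and 0.161 CPM in SMG and 0.307, 0.194, 0.292 and 0.194 CPM in PG mesenchyme. It fell below the count minimum of 10 reads in a library of median size (0.397 CPM) and was not tested.

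Membrane, receptor and calcium release genes were higher in 9 of 9 cases, with a median of 3.50 and the widest spread of any role. Chrna1, the alpha subunit of the muscle acetylcholine receptor, read 2.35, 2.04, 0.819 and 7.22 CPM in SMG and 56.4, 45.0, 35.2 and 23.4 CPM in PG mesenchyme (3.68 ± 0.59, adjusted p = 0.000455). Chrng, the gamma subunit that marks the fetal receptor, read 1.8, 0.845, 1.12 and 4.15 CPM against 32.5, 24.8, 19.2 and 13.5 CPM (3.50 ± 0.49, adjusted p = 0.000102). The beta and delta subunits, Chrnb1 and Chrnd, rose by 2.93 ± 0.34 and 2.92 ± 0.57, so that all 4 subunit genes of the fetal receptor were called in the same direction.

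Cacna1s, the voltage sensor of the T-tubule, was at 0.126, 0, 0.0862 and 0.161 CPM in SMG mesenchyme and at 8.64, 3.23, 3.96 and 2.42 CPM in PG mesenchyme (5.55 ± 0.63, adjusted p = 1.46e-05). Cav3, the muscle caveolin, was at 0.168, 0.0384, 0 and 0.202 CPM against 2.41, 2.25, 2.37 and 2.61 CPM (4.50 ± 0.65, adjusted p = 0.000134), the most even of the 38 genes among PG replicates. Ryr1, the calcium release channel that Cacna1s opens, had the smallest change of the 37, from 8.42, 9.87, 9.44 and 6.98 CPM to 19.3, 11.5, 18.2 and 14.8 CPM (0.88 ± 0.23, adjusted p = 0.00992). The sensor and its channel therefore lay at opposite ends of the range of changes. Of the exon bases of Cacna1s, 20% lie opposite another annotated gene.

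**Figure D3:**
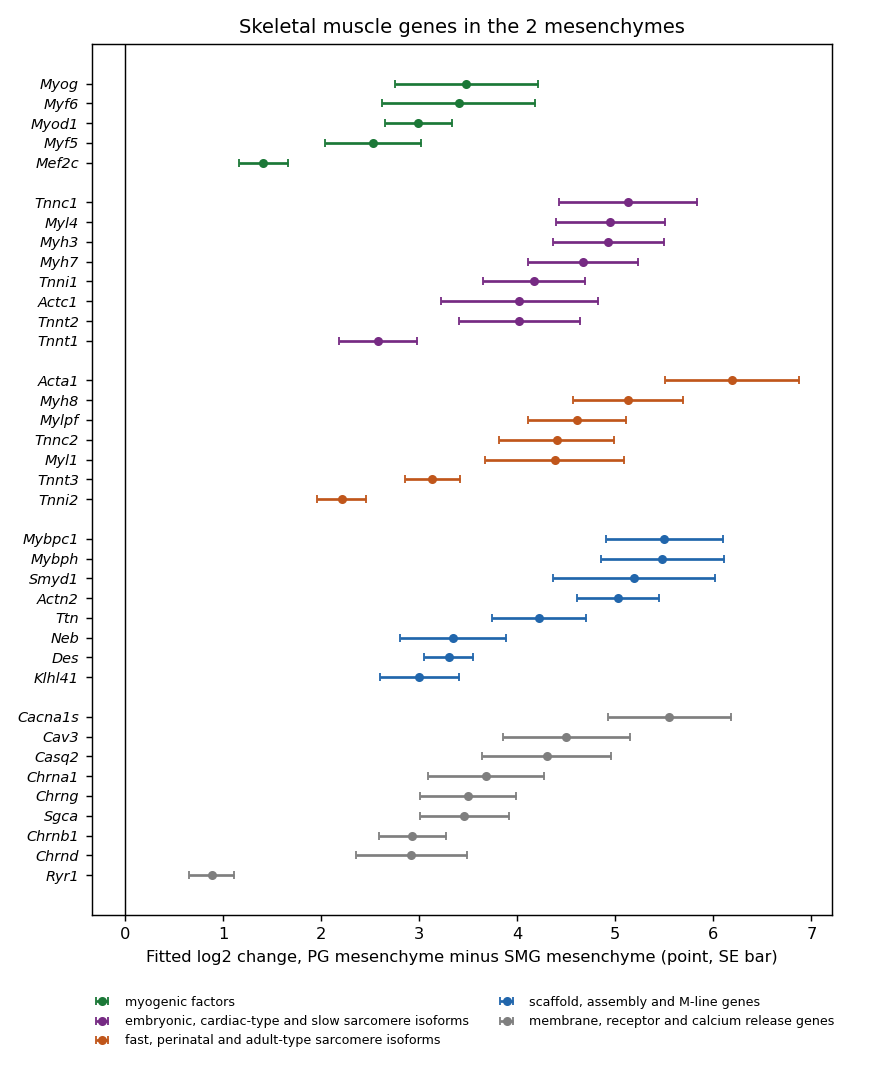
Fitted log2 change between PG and SMG mesenchyme (x axis; positive means higher in PG) with its SE for the 37 muscle genes tested, coloured and grouped by role. Every point lies to the right of 0, from Ryr1 at 0.88 to Acta1 at 6.19, and the factors span 1.41 to 3.48.

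As a plain ratio of mean CPM, the PG to SMG difference had a median of 16.3 over the 38 genes (1.84 for Ryr1 to 73.1 for Acta1). By role the median ratio was 7.96 for the factors, 21.9 for embryonic and slow isoforms, 23 for fast and perinatal isoforms, 18.7 for scaffold genes and 11.3 for membrane genes. The ranges overlapped between roles: the factors ran from 2.66 to 11.2 and the embryonic isoforms from 5.98 to 35.1. Without SMG mesenchyme replicate 4 the medians were 10.5, 47.3, 46.5, 24.1 and 17.9 in the same order, so embryonic and fast isoforms changed places. Whether one role changed more than another was not tested.

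SMG mesenchyme replicate 4 carried much of the muscle signal of its group. It was the highest SMG library for 34 of 38 genes, and its level over the mean of the other 3 had a median of 2.94 (0.755 for Ryr1 to 8.07 for Tnnc1). Myog stood at 4.43 times the other 3, Myod1 at 2.26 times, Tnni2 at 1.56 times and Mef2c at 1.04 times. The same library was the highest of its group for 5 of 5 genes of the tendon list, Scx, Tnmd, Mkx, Egr1 and Egr2. Scx, the tendon progenitor factor, was at 21.4 CPM against 2.93 to 6.15 CPM. Summed, the list had a higher mean in SMG epithelium (502 CPM) than in SMG mesenchyme (220 CPM), so the sum does not mark tendon cells alone. Most of the list's 603 CPM in SMG mesenchyme replicate 4 was Egr1. The sum therefore does not show which cells Scx, Tnmd or Mkx mark. Replicate 4 was the lowest of its group for 7 of 7 macrophage genes and for 9 of 10 epithelial markers. The part of these other genes in the muscle signal was not tested.

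Without that library the median ratio between the mesenchymes was 24.3 (1.72 to 102), and the ratio of 18 genes moved by over 1.5 times, for example from 11.1 to 20.7 for Myog, from 16.3 to 30.5 for Actc1 and from 35.1 to 97.0 for Tnnc1. No call between the mesenchymes was lost without it. PG mesenchyme also varied among its libraries, with replicate 1 highest for 32 genes and replicate 4 lowest for 33. Replicate 1 was also the PG mesenchyme library with the most epithelial marker RNA, a median of 16.5% of the epithelial level against 2.48 to 3.31% in the others. Leaving it out gave a median ratio of 14.0 and moved 1 gene, Smyd1, by over 1.5 times.

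The order of the genes is comparable between genes only per length, as CPM per kilobase of exon. In PG mesenchyme Actc1 came first at 351 ± 114 CPM per kb, followed by Mylpf at 149, Myog at 130, Tnnc1 at 124, Acta1 at 85.0 and Tnnt1 at 79.6. Every Actc1 library was above every Mylpf library and every Tnnt1 library above every Myl1 library, while the neighbours from Mylpf to Tnnt1 overlapped. The order thus mixed roles: a fast light chain and a transcription factor stood among the embryonic isoforms at the top. With the length of the longest transcript in place of all exons, Tnnc1 (179) and Tnnt1 (166) came before Myog (130). At the bottom were Ryr1 at 0.730, Cacna1s at 0.696, Myf6 at 0.631 and Ckm at 0.0847, of which Ckm was below every library of Myf6.

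In SMG mesenchyme the top of the order was Actc1 at 21.6 ± 20.4 CPM per kb, Tnnt1 at 13.3, Myog at 11.7, Mylpf at 6.07 and Myod1 at 4.70. No gene there had all of its libraries above those of the next. By longest transcript the order was Tnnt1 at 27.7, Actc1 at 23.7, Myog at 11.7, Mef2c at 8.49, Mylpf at 8.42, Tnnc1 at 5.1 and Myod1 at 4.7, so the first place and those of Mef2c and Myod1 depend on the length used. Acta1 came after 13 other genes here at 1.16 CPM per kb, and Cacna1s was last at 0.0142. Within the factors the order of means was Myog, Myod1, Mef2c, Myf5 and Myf6 in both mesenchymes by all exons, with Mef2c before Myod1 in SMG mesenchyme by longest transcript. In PG mesenchyme the libraries of Myog (83.1 to 188 CPM per kb) stood clear of those of Myod1 (27.7 to 50.6).

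Shares among related genes, computed from CPM per kb, differed between the mesenchymes for some pairs. Acta1 made up 19.6 ± 2.4% of Acta1 plus Actc1 in PG mesenchyme (16.5 to 22.3%) and 6.3 ± 3.68% in SMG mesenchyme (2.67 to 10.8%), with no overlap. Tnni2 made up 24.3 ± 3.45% of Tnni1 plus Tnni2 in PG (20.3 to 28.3%) and 56.8 ± 6.91% in SMG mesenchyme (48.6 to 63.4%), again with no overlap but in the opposite sense, the fast isoform holding the larger share in SMG. Among the 4 factors of the MyoD family, Myog took 74.5 ± 1.77% in PG (72.4 to 76.5%) and 62.4 ± 8.01% in SMG mesenchyme (53.8 to 73.1%), which overlapped.

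Myf5 took 3.35 ± 0.702% of that family in PG and 5.89 ± 1.74% in SMG mesenchyme, and Myod1 21.8 ± 1.84% and 31.3 ± 7.49%. Both overlapped between glands. Myh8 held 9.12 ± 1.15% of Myh3, Myh7 and Myh8 in PG and 8.95 ± 3.63% in SMG mesenchyme, and by longest transcript 15.9% and 15.5%. The size of the share thus depends on the length used, and 12.1% of the 50-base stretches of Myh8 also occur in other genes. The shares were not tested, since each rests on 4 libraries a group and on genes already compared above.

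**Figure D4:**
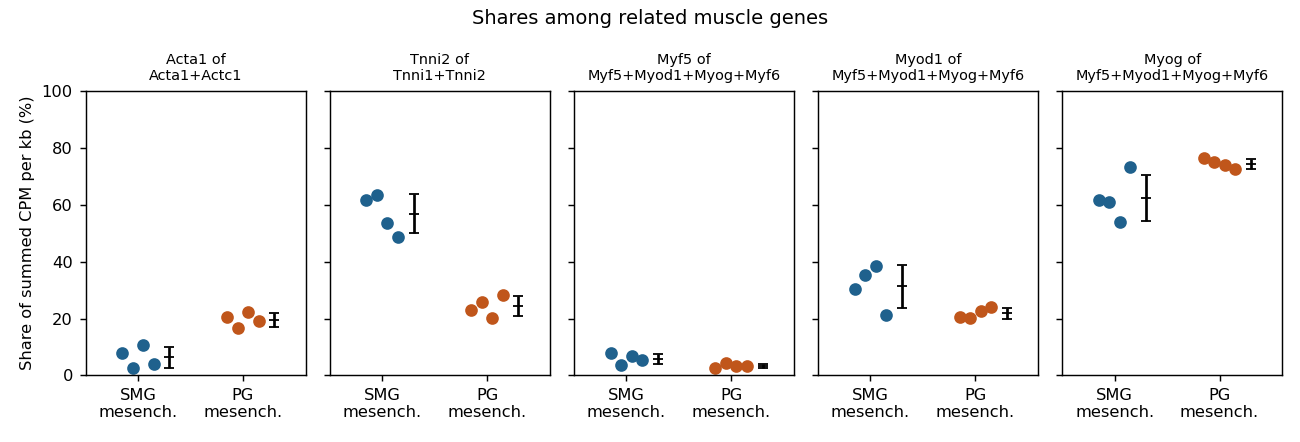
Share of a gene in the summed CPM per kb of its related genes (y axis, percent), in each SMG and PG mesenchyme library (points), with the mean and SD of 4 libraries beside them. Acta1 and Tnni2 show no overlap between the glands and move in opposite senses, while the Myog share overlaps at its edges.

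The layer comparisons set the epithelium of each gland against its mesenchyme. In PG, 37 of 37 tested genes were lower in epithelium than in mesenchyme, where 46.0% of all genes were called and 24.2% were lower. Every PG epithelium library was below every PG mesenchyme library for 37 of the 38 genes, the exception being Ckm, against 24.8% of all genes. No muscle gene had every epithelial library above, against 22.2% of all genes. The median change was -6.08 (-8.13 to -1.13) on the log2 scale, against -0.01 over all genes. The 8 genes that met the count minimum in PG mesenchyme alone are among the 37, and they had to be low elsewhere; of the other 29, 29 were lower, with a median of -6.02. These values share the PG mesenchyme libraries with the comparison between glands.

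Des was at 0.625, 0.661 and 0.229 CPM in PG epithelium (-7.53 ± 0.38 against mesenchyme, adjusted p = 2.81e-09). Myog was at 0.208, 2.99 and 0.0382 CPM (-7.48 ± 1.06, adjusted p = 9.2e-05) and Myod1 at 1.42, 2.06 and 0.572 CPM (-5.69 ± 0.46, adjusted p = 3.08e-07). Replicate 2 was the highest of the 3 for both factors, and Actc1 followed with 2.71, 11.7 and 0.0763 CPM. Ryr1 had the smallest layer difference in PG, with 7.37, 6.26 and 8.17 CPM in epithelium (-1.13 ± 0.25, adjusted p = 0.00165). Tnnc2 had 0 reads in PG epithelium, so its mesenchymal level was at least 35.0-fold higher, taking 3 counts over the group as the floor. Cacna1s had 1 read, a ratio of 346 with a 95% exact Poisson interval of 61.8 to 13700.

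In SMG, 27 of 37 genes were lower in epithelium, 0 were higher and 10 were not called, where 51.9% of all genes were called and 26.7% were lower. A total of 24 genes had every epithelial library below every mesenchymal one, against 25.2% of all genes, and the median change was -4.15 (-9.01 to -0.29) against 0.00. Without the 8 genes that met the count minimum in PG mesenchyme alone, 23 of 29 were lower. By role, 4 of 5 factors, 7 of 8 embryonic and slow isoforms, 6 of 7 fast isoforms, 7 of 8 scaffold genes and 3 of 9 membrane genes were lower. Membrane genes were thus the role with the fewest calls, though some of them had few reads in either SMG layer. Cacna1s had 9 reads in SMG mesenchyme and 1 in SMG epithelium, and Cav3 had 10 and 2.

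Myf5, Myog, Myf6 and Actc1 had few reads in SMG epithelium, while Mef2c and Myod1 were detected in every library. Myf5 had 1 read over the 4 libraries (a ratio of 229, interval 40.7 to 9100), Myog was at 0, 0.278, 0 and 0 CPM (-7.83 ± 1.24, adjusted p = 0.00016, with all 8 of its reads in replicate 2) and Actc1 at 0.0357, 0.0347, 0.11 and 0.0739 CPM (-9.01 ± 1.37, adjusted p = 0.000116). Myod1 was detected in all 4 libraries at 0.25 to 0.443 CPM (-4.62 ± 0.44, adjusted p = 6.2e-07). Mef2c stood at 2.33 to 3.81 CPM (-4.15 ± 0.29, adjusted p = 3.35e-08). Sgca, the alpha sarcoglycan of the muscle membrane, had 0 reads and was at least 12.9-fold higher in mesenchyme. Tnnc2 was called on 6 reads against 0, a bound of at least 2.27-fold.

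Some muscle genes were detected in every SMG epithelium library and were not called between the layers. Mylpf read 3.82, 3.61, 4.36 and 4.58 CPM in SMG epithelium (-0.66 ± 0.47, adjusted p = 0.27), Actn2, the Z-disc actinin, 3.75, 3.44, 3.74 and 2.85 CPM (-0.29 ± 0.40, adjusted p = 0.581), and Ryr1 9.25, 6.74, 4.72 and 4.62 CPM (-0.45 ± 0.23, adjusted p = 0.111). Chrnb1 read 2.11, 1.39, 1.54 and 2.22 CPM (-0.45 ± 0.33, adjusted p = 0.287). As a share of the SMG mesenchyme mean these were 63.5%, 81.8%, 73.0% and 73.5%, against 0.182% for Actc1 and 0.397% for Myog. Without SMG mesenchyme replicate 4 the shares were 121% for Mylpf, 122% for Actn2, 68.5% for Ryr1 and 91.3% for Chrnb1, so that Mylpf and Actn2 were then above the mesenchyme mean, and 0.341% for Actc1 and 0.738% for Myog. The 4 epithelial libraries lay close together for Mylpf and Actn2, while in SMG mesenchyme Mylpf ran from 2.28 to 15.6 CPM and Actn2 from 1.88 to 8.35 CPM.

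A set of 7 genes, Mef2c, Myh3, Mylpf, Ttn, Actn2, Chrnb1 and Ryr1, were at 1 CPM or more in every SMG epithelium library and made up 81.3% of the muscle gene CPM there, against 37.4% in SMG mesenchyme (45.5% without its replicate 4) and 29.1% in PG mesenchyme. The 7 were picked for their level in SMG epithelium, so the first of these shares follows in part from that choice. A further 27 genes were under 0.5 CPM in every SMG epithelium library. Per kb, Mylpf led in SMG epithelium at 3.85 ± 0.427, above every library of Actn2, the next gene, at 0.907.

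**Figure D5:**
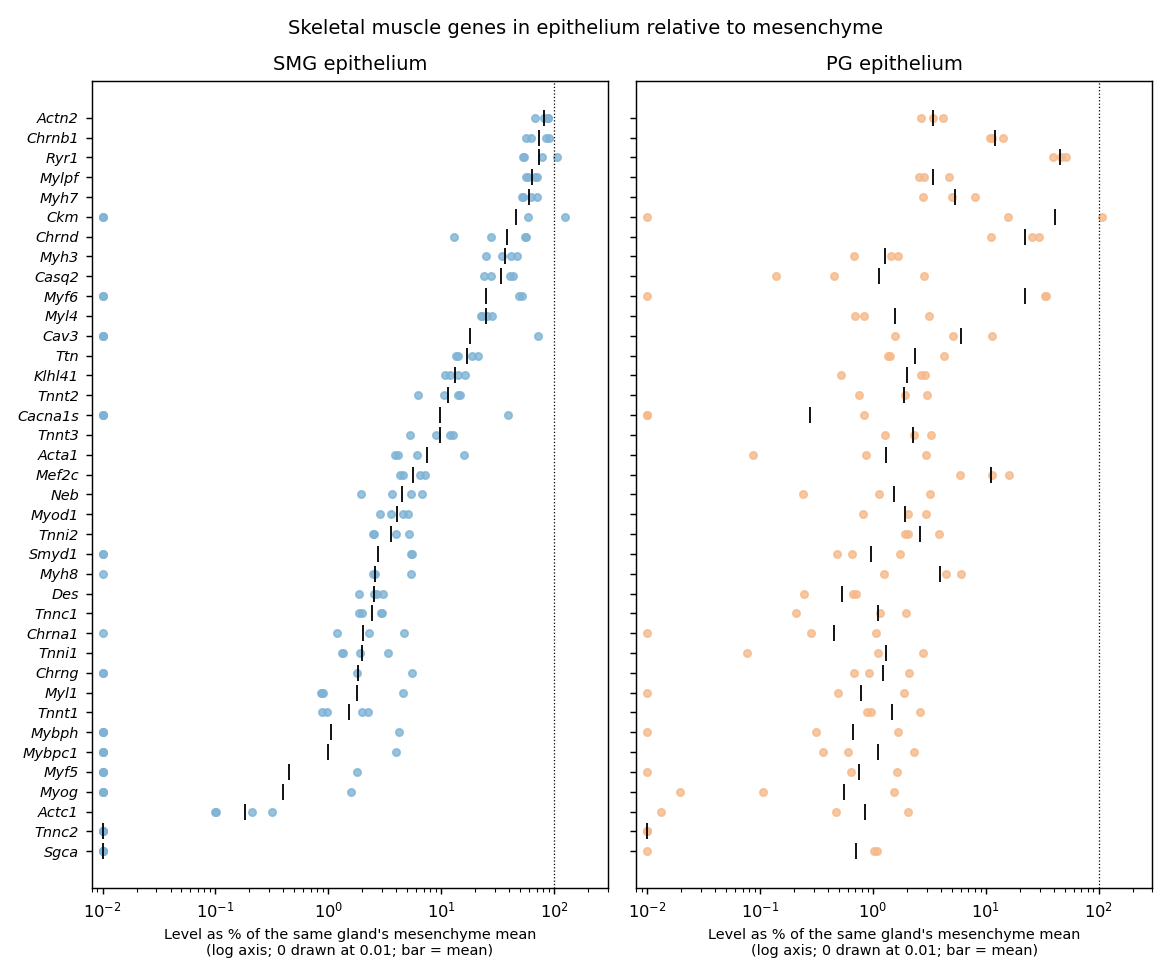
Level of each muscle gene in the epithelial libraries of SMG (left) and PG (right) as a percent of the mean level in the mesenchyme of the same gland (logarithmic x axis; 0 drawn at 0.01; points are libraries, bars their means; the dotted line is 100%). In SMG, Actn2, Chrnb1, Ryr1 and Mylpf have means of 63.5 to 81.8% while Actc1, Myog and Myf5 average below 1%, and in PG replicate 2 is the highest library for 29 genes.

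Myh3 and Myl4 depended on 1 library in the SMG layer comparison. Myh3 was called at -1.43 ± 0.55 (adjusted p = 0.0431) with epithelial levels of 1.93, 3.65, 3.22 and 2.66 CPM, and was at -0.58 (adjusted p = 0.255) without SMG mesenchyme replicate 4. It also lost its call with replicate number as a block (adjusted p = 0.114). Myl4 went from -2.0 ± 0.63 (adjusted p = 0.0164) to -1.06 (adjusted p = 0.0946) without that library. Tnnt2 stayed called, at -3.12 ± 0.74 with and -1.82 without it.

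Between the epithelia, 10 of 37 genes were higher in PG, 0 were lower and 27 were not called, where 11.7% of all genes were called, 7.07% higher and 4.66% lower. The 10 were Myod1, Mef2c, Actc1, Tnni1, Tnnt1, Acta1, Myh8, Tnni2, Mybpc1 and Chrnd. Myh8 was at 2.96, 2.18 and 0.611 CPM in PG epithelium and at 0.0357, 0.0347, 0 and 0.0739 CPM in SMG epithelium (5.54 ± 0.94, adjusted p = 0.0014). Mef2c was at 22.7, 16.0 and 8.4 CPM in PG epithelium (2.38 ± 0.29, adjusted p = 9.61e-05). All PG epithelium libraries were above all SMG epithelium libraries for 12 of the 38 genes, against 11.4% of all genes.

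PG epithelium replicate 2 was the highest of its group for 29 genes, and was also the PG epithelium library with the most RNA of some other cells. Mesenchymal markers stood at a median of 4.88% of their mesenchymal level there, against 0.519% and 0.952% in the others, endothelial markers at 8.8% against 0.668% and 0.273%, and macrophage markers at 17.8% against 4.92% and 1.49%. Erythroid genes went the other way, summing to 377 CPM there against 2260 and 573 CPM in replicates 1 and 3, and 6 of 7 were lowest in replicate 2. Without it 2 genes were called, Mef2c and Myh8, and without any 1 of the SMG epithelium libraries 4 or 5 were called. The part of these cells in the muscle signal of the epithelium was not tested. The muscle genes themselves, summed, stood at 2.22%, 3.36% and 1.36% of the PG mesenchyme level in the 3 PG epithelium libraries.

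The other genes of the muscle program, 83 genes in 6 lists, were read beside them. Of 79 tested, 61 were higher in PG mesenchyme, 2 were lower and 16 were not called, with a median of 2.56 on the log2 scale against 0.02 over all genes. Over all genes 15.3% were higher and 9.43% lower, the shares to set beside every list count between the mesenchymes below. Among 14 progenitor regulators 9 were higher and 0 lower. Pax7, the factor of later muscle progenitors, went from a mean of 0.8 to 7.57 CPM (3.24 ± 0.62, adjusted p = 0.00117), and Pax3, its relative of the earlier trunk progenitors, was not called (1.48 ± 0.55, adjusted p = 0.063), although it was at 1.26 to 2.23 when single libraries were left out and was called in 4 of those 15 fits.

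The regulators of head muscle differed among themselves. Msc, also called MyoR, rose by 3.13 ± 0.49 (adjusted p = 0.000329), Tcf21, also called capsulin, by 2.93 ± 0.48 (adjusted p = 0.000357) and Lhx2 by 5.64 ± 0.49 (adjusted p = 1.25e-06). Tbx1, the factor of pharyngeal mesoderm, was at a mean of 9.03 CPM in SMG and 9.17 CPM in PG mesenchyme (0.02 ± 0.70, adjusted p = 0.988), and Lbx1, which acts in migrating limb and tongue progenitors, was at -0.47 ± 0.80 (adjusted p = 0.725).

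Adhesion and fusion genes were higher in PG mesenchyme for 7 of 8. Cdh15, the M-cadherin of myoblasts, rose by 2.44 ± 0.41 (adjusted p = 0.000579). Mymk and Mymx, the proteins that fuse myoblasts, rose by 3.59 ± 0.84 (adjusted p = 0.0102) and 3.38 ± 0.76 (adjusted p = 0.00714), from means of 2.09 and 1.25 to 25.1 and 13.1 CPM, and both had 0 reads in SMG epithelium. Ncam1, a cell adhesion molecule also of nerve, was called at 1.19 (adjusted p = 0.0205) and lost the call without SMG mesenchyme replicate 2 and without replicate 4 (adjusted p up to 0.0545).

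Further sarcomere genes were higher for 19 of 21 tested, further membrane and calcium genes for 14 of 17 and muscle metabolism genes for 9 of 9. Trdn, the triadin of the calcium release complex, rose by 5.60 ± 0.62 (adjusted p = 1e-05), and Musk, the kinase that gathers acetylcholine receptors, by 3.51 ± 0.59 (adjusted p = 0.000523). Popdc3 was called at 1.57 (adjusted p = 0.0465) and lost the call in 12 of the 15 fits without 1 library. Among the 10 inhibitors of differentiation, 3 were higher and 2 lower, with a median of -0.02: Mstn, the secreted inhibitor of muscle growth, rose by 4.40 ± 0.55 (adjusted p = 4.84e-05), and Id2, an inhibitor of the myogenic factors, fell by 1.20 ± 0.22 (adjusted p = 0.0012). Id1 fell by 0.96 and Id4 rose by 1.21, and both lost their calls without single libraries, in 3 and 4 of 15 fits. Hey1 rose by 1.44.

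Isoforms of the heart and of smooth muscle were read beside the cardiac-type genes. Nppa, a defining hormone of heart muscle, was at 0 in all 8 mesenchymal libraries, Nppb at 0.0439 CPM or less and Gata4 at 0.439 CPM or less, and the 9 cardiac genes summed to 6.53 to 8.91 CPM in SMG and 7.26 to 9.04 CPM in PG mesenchyme. Other cardiac genes were detected in every mesenchymal library. Myh6 was at 1.46 to 3.58 CPM in SMG and 1.45 to 3.25 CPM in PG mesenchyme. Tnni3 was at 1.98 to 2.92 CPM and 0.532 to 0.855 CPM, and Hcn4 at 0.963 to 2.66 CPM and 3.85 to 5.5 CPM. One of 5 tested cardiac genes was higher in PG mesenchyme and 1 was lower, where 15.3% of all genes were higher and 9.43% lower. Acta2, the smooth muscle actin that differentiating skeletal muscle also makes, rose with the muscle genes, from 22.3, 13.8, 15.9 and 70.5 CPM to 297, 353, 240 and 173 CPM (3.12 ± 0.63, adjusted p = 0.00296). Myh11, the smooth muscle myosin, was at 1.13 to 2.97 CPM in SMG and 0.307 to 1.87 CPM in PG mesenchyme, and 2 of the 9 smooth muscle and pericyte genes were higher, Acta2 and Tagln.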

How the data were processed

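Bulk RNA-seq libraries were assigned to groups by their titles. Per the labels' protocols, RNA was isolated with TRIzol, a SMART-Seq v4 kit gave full-length cDNA and Nextera XT the libraries. The authors deposited raw read counts by Ensembl gene and, in a second file, CPM that they had scaled for library size. Tools listed in the submitters' processing notes are edgeR, limma, DESeq2 and STAR 2.5.2a, and the builds named are GRCm38.p3 and mm10, with no role for each. Which program counted reads, with which strand setting and annotation, is not given in the sources used here.

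Of 48709 genes, 48349 identifiers had a symbol and 360 did not. The 92 spike-in rows (at most 0.00537% of counts) were left out. Of the deposited CPM values, 100% were whole reads within 0.001 reads, 0 of which differed from the counts. No per-library column was left unmapped. Gene totals were 20561142 to 29552734 counts per library.

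Counts were fitted in edgeR 4.0.16 (R 4.3.3) with filterByExpr by group, TMM factors, robust quasi-likelihood F-tests and all 15 libraries in 1 model, with a spread estimated over every group (biological coefficient of variation 0.227). Two-sided p-values were adjusted by Benjamini-Hochberg over 18940 genes, with a threshold of 0.05. The SE of a log2 change is its size divided by the square root of F. CPM per kb used the union of GENCODE M21 exons on GRCm38. A group with 0 reads was set to a floor of 3 counts, and intervals are 95% exact Poisson; with PCR copies unmarked, both cover only the counting error. Figures used matplotlib 3.10.9. The script was tested on simulated counts.

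The genes, role lists and pathway lists were chosen with earlier results of these data known. Per-library values are printed for the 5 factors, Actc1, Acta1, Myh3, Myh7, Myh8, Mylpf, Myl4, Tnnt2, Des, Ttn, Ckm, Chrna1, Chrng, Cav3 and the 3 largest and 3 smallest changes between the mesenchymes, and other genes where the text turns on them. Those others were chosen after their values were seen. Alternatives were another normalization, no low-count filter, DESeq2 1.42.0, only the groups compared, a replicate block, each library left out, a fit lacking both PG mesenchyme replicate 1 and PG epithelium replicate 2, and limma 3.58.1 on log2 of the deposited CPM plus 0.5 or 2. Reads recovered from the deposited CPM, counts without the 8 genes at the count minimum in PG mesenchyme alone, and shares without SMG mesenchyme replicate 4 were added after seeing the data. Results for some genes of the progenitor list are not reported here.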

Additional observations from a re-analysis of the deposited data

Results flagged for a closer look

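In 16 of 115 groups of 4 libraries examined, 1 library lay apart from the other 3 (Dixon's ratio above its 95% critical value). For independent, normally distributed values chance would mark about 1 in 20 groups. That rate cannot be applied to these 16 groups. They share libraries, include the sum of the genes and include groups with reads in 1 library only. Of these, 7 were SMG mesenchyme replicate 4: Myh3 at 18.2 CPM (2.89 to 5.19 CPM in the others), Tnnc1 at 10.7 CPM (0.991 to 1.84), Tnnt2 at 7.74 CPM (1.08 to 1.17), Myl1 at 10.7 CPM (1.29 to 2.39), Mylpf at 15.6 CPM (2.28 to 4.19), Casq2 at 7.26 CPM (1.16 to 1.55), and the sum of the 38 muscle genes at 441 CPM (161 to 206). All 7 were high. In PG mesenchyme Mef2c was low in replicate 4, at 119 CPM against 148 to 150 CPM.

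The other 8 were values of 0 or a few reads. In SMG epithelium replicate 4, Myf5 stood at 0.0369 CPM, Myl1 at 0.185 CPM, Mybpc1 at 0.0369 CPM, Mybph at 0.0369 CPM and Cav3 at 0.0739 CPM. Myog stood at 0.278 CPM in SMG epithelium replicate 2 and Cacna1s at 0.0366 CPM in replicate 3. Tnnc2 was at 0 in SMG mesenchyme replicate 3.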

How the results depend on the processing

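Between the mesenchymes no muscle gene lost its call or changed direction under any alternative that gave a value, and 36 to 38 genes were called higher as the number tested varied. PG epithelium stayed lower than PG mesenchyme for 36 or 37 genes, the exception being Myf6, at -1.55 (adjusted p = 0.0963) without PG epithelium replicate 1, adjusted p = 0.0535 with only the 2 groups compared and 0.0615 without PG mesenchyme replicate 1 and PG epithelium replicate 2. In SMG 20 to 30 genes were lower in epithelium (25 to 30 with 1 library left out). The epithelium comparison was the least stable: 10 genes were higher in PG, but 4 with no low-count filter, 5 with only the 2 groups compared, 2 without PG mesenchyme replicate 1 and PG epithelium replicate 2, 3 and 1 with limma on the deposited CPM at pseudocounts of 0.5 and 2, and 2 to 12 with 1 library left out. The cause was not tested.

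Uncalled changes that crossed 0 were, without SMG mesenchyme replicate 4 in the SMG layers, Myh7 at 0.33, Mylpf at 0.26 and Actn2 at 0.29, where leaving out other libraries gave values down to -1.07, -0.94 and -0.57. Between the epithelia, Myh3 was at -0.17 without PG epithelium replicate 2, alone or with PG mesenchyme replicate 1, at -0.09 without SMG epithelium replicate 1 and at -0.04 without PG epithelium replicate 1. Myl4 was at -0.04 and Chrna1 at -0.06 without PG epithelium replicate 2, alone or with PG mesenchyme replicate 1, and Klhl41 at -0.03 without PG epithelium replicate 1. With 1 library left out their highest values were 0.38 for Myh3, 1.34 for Myl4, 2.21 for Chrna1 and 0.76 for Klhl41. Lengths of the longest transcript gave a Myh8 share of 15.5% in SMG and 15.9% in PG mesenchyme.

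Same-numbered libraries of the groups compared correlated at -0.124 to 0.283, not all above 0.1, and the numbers were not taken as pairs. Between the SMG layers the correlations were 0.0136, 0.142, 0.193 and 0.283, and replicates 2, 3 and 4 matched their own number best. Between the PG layers only replicate 1 did. The replicate block joined the same numbers of both glands, so pairing within a gland was not tested on its own. With replicate number as a block, 2894 genes were higher and 1795 lower in PG mesenchyme, against 2892 and 1786 without it. The block ended the calls of Mybpc1 (adjusted p = 0.0546), Tnni1 (0.0656) and Acta1 (0.0999) between the epithelia and of Myh3 (0.114) between the SMG layers, and added that of Cacna1s (0.047) there. Depth limits Myf6, Tnnc2, Cacna1s, Cav3 and Sgca outside PG mesenchyme, where they had few reads, and Ckm in every group.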

Other observations

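Genes of tendon, which forms beside muscle, were among the other lists read. In PG against SMG mesenchyme 3 of 5 tendon genes were higher: Scx, the tendon progenitor factor, by 2.5 on the log2 scale, from 5.15, 6.15, 2.93 and 21.4 CPM to 39.0, 64.2, 48.2 and 50.7 CPM, Mkx by 1.89, from 9.01, 9.41, 6.6 and 14.4 CPM to 44.8, 39.4, 34.3 and 27.4 CPM, and Tnmd, tenomodulin, by 5.64. Tnmd was at 0.0439, 3.65, 1.21 and 2.13 CPM in PG mesenchyme, lowest in replicate 1, the library highest for 32 of the 38 muscle genes. It had 1 read in that library. The glands overlapped for Tnmd, while Scx and Mkx had every PG mesenchyme library above every SMG mesenchyme library. Egr1 was at 552 CPM in SMG mesenchyme replicate 4 and at 33.3, 77.4 and 125 CPM in the others.

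Tbx1, with like means in both mesenchymes, was lower in PG than in SMG epithelium (log2 change -3.05 ± 0.83, adjusted p = 0.0309). Its PG epithelium libraries stood at 0.458, 14.8 and 0.916 CPM, the highest being replicate 2.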
